A study of Mus musculus with 4 samples.

Results

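The stretch of mouse chromosome 5 within 10 Mb of Ccng2, the gene for cyclin G2 (CycG2), was described gene by gene in knockout and wild-type (WT) fibroblasts cultured from mouse embryos (MEFs). Members were the array positions between chr5:84351052-104351111 of the mm8 build, except those of Ccng2 itself, Ccni, Gak, Fgf5, Ppbp, Pf4 and the Cxcl chemokines, which were left out by the names in the files. The stretch held 310 positions. Leaving out 18 gave 292 members, which carried 195 gene names, of 41174 positions measured in all. The choice used map position and names and no measured value. The lowest member lay at Tecrl, 10.00 Mb below Ccng2, and the highest at Sparcl1, 9.97 Mb above it. The next array positions beyond them were those of 1700031L13Rik at 11.2 Mb below and Dspp at 10.1 Mb above.

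mRNA was compared in 2 pairs of cultures, CycG1-/- (G1KO) against CycG1+/+ (WT), and CycG2-/- (G2KO) against CycG2+/+ (WT). All 4 cultures were labelled C57BL/6J under strain, although the source name of the G2KO pair reads C57BL/7J. RNA was taken during logarithmic growth, with no treatment, in serum-containing medium. Each pair was hybridised on 2 arrays of 2 colours, with the dyes exchanged on the second, so each genotype was 1 culture and no test between genotypes was possible. In the G1KO mice the coding exons of Ccng1, which lies on chromosome 11, had been replaced by a neomycin cassette in embryonic stem cells, and chimeric mice were mated with C57BL/6 mice. The G2KO mice came from earlier work, and the part of Ccng2 removed is not given in the sources used here.

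Ccng1 mRNA was lower in G1KO on both arrays, with log2 ratios of -6.76 and -6.57 at one probe and -4.91 and -5.02 at the other. Ccng2 mRNA was not reduced in the RNA labelled G2KO, where its log2 ratios to WT were 0.28 and -0.10. A probe outside the deleted part of a gene checks nothing, and it is not known whether this one lies outside. The name "RNA labelled G2KO" is therefore used throughout, and within these arrays every direction in that comparison rests on the label. The paper reports genotyping of its G2KO MEFs by reverse-transcription PCR of their mRNA with CycG2 primers. Xist was higher in the knockout RNA of both pairs, with mean log2 ratios of 7.54 and 7.24 at its brightest probe. The Y-linked Eif2s3y did not rise well above background in the knockout RNAs, and was at least 82.4-fold and 51.3-fold lower than in WT. The paper ascribes the Xist rise to a female origin of the G1KO and G2KO MEFs. Sex-linked transcripts thus differed together with genotype in both pairs, and sex and genotype cannot be told apart.

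Cyclin G2 is an unusual cyclin that binds the protein phosphatase PP2A and is linked to cell cycle arrest. Its neighbourhood holds several clusters of related genes, among them the albumin family, the caseins, the enamel matrix proteins, and the EGF family ligands amphiregulin, epiregulin, betacellulin and epigen. Much of it also consists of housekeeping genes for RNA handling and protein traffic. A targeted allele is inherited together with the chromosome around it, which is why the neighbours of a disrupted gene are of interest in a knockout. The G1KO pair served as the comparison in which the disrupted gene lay on another chromosome.

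The promoters of 5 neighbouring genes that were called lower in G1KO, all between 1.65 and 0.314 Mb below Ccng2, are shown first, followed by that of Areg, the member most increased in the RNA labelled G2KO. Each sequence runs from 250 bases before to 50 bases after a transcription start, 5′ to 3′ on the gene's own strand, from RefSeq on build GRCm38.p6, whose coordinates differ from the mm8 ones used elsewhere. Capitals mark every copy, on either strand, of the TATA box TATAAA, the CCAAT box and the GC box GGGCGG, and copies may overlap. Cdkl2 and Shroom3 have 2 listed starts each. The intervals are chr5:91517450-91517749 on the + strand for Parm1, chr5:92042993-92043292 and chr5:92042647-92042946 on the - strand for Cdkl2, chr5:92505608-92505907 on the - strand for Scarb2, chr5:92602801-92603100 on the + strand for Stbd1, chr5:92809132-92809431 and chr5:92897743-92898042 on the + strand for Shroom3, and chr5:91139349-91139648 on the + strand for Areg.
Parm1: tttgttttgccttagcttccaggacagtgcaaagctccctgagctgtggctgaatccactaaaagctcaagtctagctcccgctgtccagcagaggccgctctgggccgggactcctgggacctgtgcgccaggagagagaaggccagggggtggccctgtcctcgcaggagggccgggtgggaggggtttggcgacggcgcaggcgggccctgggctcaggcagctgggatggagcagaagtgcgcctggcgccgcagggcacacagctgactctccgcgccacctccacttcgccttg
Cdkl2, first start: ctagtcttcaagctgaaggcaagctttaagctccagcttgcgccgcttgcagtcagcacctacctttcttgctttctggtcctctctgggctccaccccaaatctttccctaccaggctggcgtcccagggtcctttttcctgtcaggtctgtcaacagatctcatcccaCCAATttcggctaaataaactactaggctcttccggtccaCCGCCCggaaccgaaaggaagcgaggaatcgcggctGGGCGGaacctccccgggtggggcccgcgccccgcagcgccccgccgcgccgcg
Cdkl2, second start: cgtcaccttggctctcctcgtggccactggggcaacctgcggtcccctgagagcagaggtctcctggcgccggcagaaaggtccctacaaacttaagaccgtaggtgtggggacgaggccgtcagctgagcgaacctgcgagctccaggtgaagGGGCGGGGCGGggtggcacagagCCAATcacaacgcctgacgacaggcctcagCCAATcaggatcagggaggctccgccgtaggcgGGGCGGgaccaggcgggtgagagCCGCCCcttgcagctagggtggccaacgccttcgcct
Scarb2: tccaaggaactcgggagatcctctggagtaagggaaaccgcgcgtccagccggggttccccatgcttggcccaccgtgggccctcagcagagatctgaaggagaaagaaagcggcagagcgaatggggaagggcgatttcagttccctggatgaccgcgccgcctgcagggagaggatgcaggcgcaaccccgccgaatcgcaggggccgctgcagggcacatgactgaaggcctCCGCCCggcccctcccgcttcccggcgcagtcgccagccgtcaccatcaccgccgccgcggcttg
Stbd1: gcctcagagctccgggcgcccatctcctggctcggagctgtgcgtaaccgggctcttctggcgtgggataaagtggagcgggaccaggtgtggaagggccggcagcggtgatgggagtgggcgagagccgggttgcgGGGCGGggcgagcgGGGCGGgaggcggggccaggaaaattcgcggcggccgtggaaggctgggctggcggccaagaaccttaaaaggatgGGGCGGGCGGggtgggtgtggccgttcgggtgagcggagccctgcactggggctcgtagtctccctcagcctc
Shroom3, first start: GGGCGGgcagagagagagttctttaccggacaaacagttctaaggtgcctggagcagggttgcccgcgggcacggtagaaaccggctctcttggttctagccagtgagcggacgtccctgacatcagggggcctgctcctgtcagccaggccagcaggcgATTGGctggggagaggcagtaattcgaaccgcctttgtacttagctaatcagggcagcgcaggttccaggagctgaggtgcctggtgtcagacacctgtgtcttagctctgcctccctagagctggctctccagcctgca
Shroom3, second start: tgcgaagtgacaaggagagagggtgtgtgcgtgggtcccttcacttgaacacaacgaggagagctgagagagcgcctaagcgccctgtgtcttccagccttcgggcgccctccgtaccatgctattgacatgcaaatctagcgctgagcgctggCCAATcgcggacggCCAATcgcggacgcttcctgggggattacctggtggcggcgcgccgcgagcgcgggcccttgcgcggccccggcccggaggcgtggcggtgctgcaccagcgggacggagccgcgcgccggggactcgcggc
Areg: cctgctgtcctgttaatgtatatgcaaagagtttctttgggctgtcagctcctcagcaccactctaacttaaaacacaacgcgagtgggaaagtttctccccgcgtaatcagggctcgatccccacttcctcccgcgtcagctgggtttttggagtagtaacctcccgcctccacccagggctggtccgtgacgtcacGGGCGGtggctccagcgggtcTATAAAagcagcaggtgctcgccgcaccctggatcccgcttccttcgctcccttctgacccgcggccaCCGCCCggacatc

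The 7 promoters of the G1KO-lower genes had no TATAAA on either strand, whereas Areg had 1. The GC box was found in 5 of those 7, up to 4 times at Stbd1 and at the second start of Cdkl2, and was not found at Parm1 or the second start of Shroom3. CCAAT was found at both starts of Cdkl2 and of Shroom3. Among all 32851 listed mouse promoters of this length, 13.6% held TATAAA, 37.4% CCAAT and 35.7% GGGCGG on at least 1 strand. Promoters were listed for 112 of the 195 member genes, in 135 entries. Member genes with a probe measured above background had a median of 25 CpG dinucleotides per promoter, over 76 entries of 62 genes. Those with none had a median of 3, over 59 entries of 50 genes, and all mouse promoters a median of 7. Promoters of members measured in these cells thus held more CpG than those of the rest.

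A probe was tested where it was well above background, by the scanner's flag, on both arrays in at least 1 genotype, and was called when its log2 ratio of knockout over WT reached 1 in size (2-fold) on both of its arrays, with the same sign. Of the 292 members, 160 were tested in G1KO, and 152 in the other pair. In all 146 members were tested in both comparisons, and 126 in neither. In several tissue-specific clusters few probes had signal. None of the 6 probes of the TMPRSS11 serine proteases was tested. Of 15 probes of the UDP-glucuronosyl and sulfotransferases, which couple hormones and drugs to sugars or sulphate, 1 was tested in G1KO (Ugt2b34, log2 ratio -0.16 ± 0.21) and 0 in the other pair. Of 10 probes of the caseins and salivary proteins, 1 was tested in each pair (Csn3, the milk protein kappa-casein, at log2 ratios of -0.06 and -0.10). Errors after ± give the SD of both arrays of a comparison and are technical.

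In G1KO, 17 of 160 tested members were called (10.6%), against 5.79% of the 25541 probes tested on the whole array. Of these, 3 were higher (1.88% of members, against 1.99% of all probes) and 14 were lower (8.75%, against 3.8%). At a 4-fold threshold 5 members were called (3.12%, against 1.51%), and at 1.5-fold 28 (17.5%, against 13.1%). In the RNA labelled G2KO, 18 of 152 tested members were called (11.8%), against 6.37% of 25431 probes. These counts depend on the normalization. With median centring in place of loess 11 members were called in G1KO (6.88%, against 3.18% of all probes) and 8 in the other pair (5.26%, against 3.76%), and with the scanner's own ratio 33 (20.6%, against 11.2%) and 30 (19.7%, against 13.4%). Of the 18 called after loess, 4 were higher (2.63%, against 2.31%) and 14 were lower (9.21%, against 4.06%). At 4-fold 5 were called (3.29%, against 1.84%), and at 1.5-fold 28 (18.4%, against 14.6%). The excess over the array was thus on the side of lower probes in both comparisons, and the members' shares in the pair labelled for Ccng2 and in the other were close to each other. These shares are descriptions of 1 culture per genotype, and the members are not independent, since many probes share a gene.

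Elsewhere the shares were as follows. On the rest of chromosome 5, 3.91% of 1459 tested probes were called in G1KO, and 5.2% of 1482 in the other pair. Within 10 Mb of Ccng1, 4.96% of 141 were called in G1KO, and 10.3% of 146 in the other pair. The stretch around Ccng1 was therefore called less often than that around Ccng2 in G1KO, the knockout of Ccng1. The typical member hardly moved. The median log2 ratio was 0.05 over members in G1KO, beside -0.0023 over all probes, 0.05 on the rest of chromosome 5 and 0.05 around Ccng1. The G2KO-labelled pair had -0.11 over members, beside -0.0071 over all probes, -0.17 on the rest of chromosome 5 and -0.15 around Ccng1. The members' medians on single arrays were 0.0061 and 0.04 in G1KO and -0.13 and -0.10 in the other pair, and the SD between arrays for a single member was 0.14 in both.

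**Figure D1:**
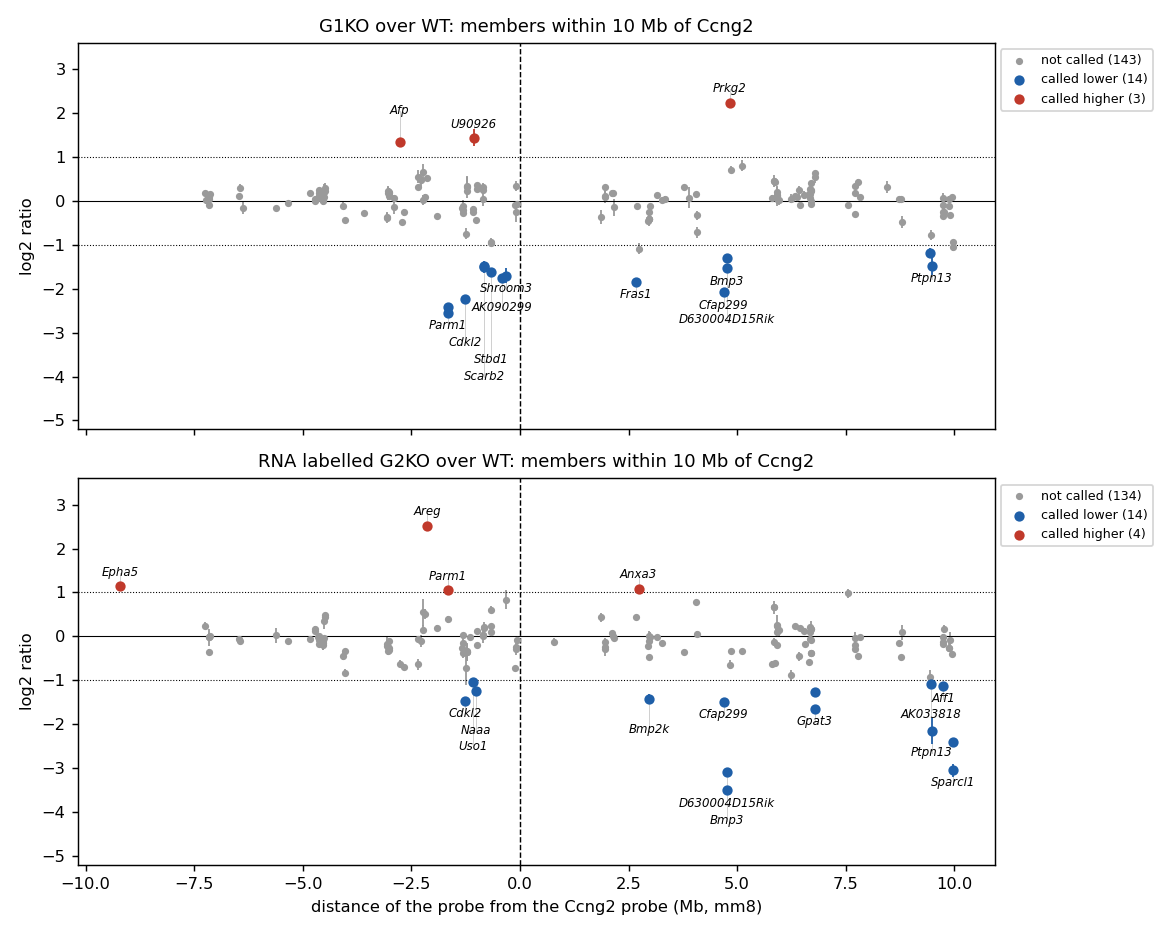
Log2 ratio of knockout over WT (vertical axis) for each tested member by its distance from the Ccng2 probe in Mb on mm8 (horizontal axis), for G1KO (top) and the RNA labelled G2KO (bottom). Points are means of 2 arrays, vertical lines join both arrays, dotted lines mark the 2-fold threshold, and italic names mark the called genes. Between 1.65 and 0.314 Mb below Ccng2 there are 8 lower probes in G1KO and 3 in the other pair, and Cfap299, Bmp3 and D630004D15Rik are lower in both.

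Called members were not spread evenly along the stretch. In G1KO, 9 of 39 tested members within 2.5 Mb below Ccng2 were called (23.1%), 8 of them lower, and 0 of 7 within 2.5 Mb above it. Between 2.5 and 5 Mb above, 5 of 22 were called (22.7%), 4 of them lower. In the remaining bins 1 of 29, 0 of 11 and 2 of 52 were called. The corresponding counts for the RNA labelled G2KO were 5 of 38 (13.2%) within 2.5 Mb below and 0 of 8 within 2.5 Mb above. Between 2.5 and 5 Mb above, 5 of 18 were called (27.8%), again with 4 lower. Between 5 and 10 Mb above, 7 of 52 were called (13.5%), all lower, and 1 of 10 between 5 and 10 Mb below. No tested member closer than Shroom3, at 0.314 Mb, on the lower side, or within 2.5 Mb on the upper side, was called in either comparison. Only 7 and 8 probes were tested on that upper side. At the shares over the whole array, 5.79% and 6.37%, few or no calls would be expected among so few probes.

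**Figure D2:**
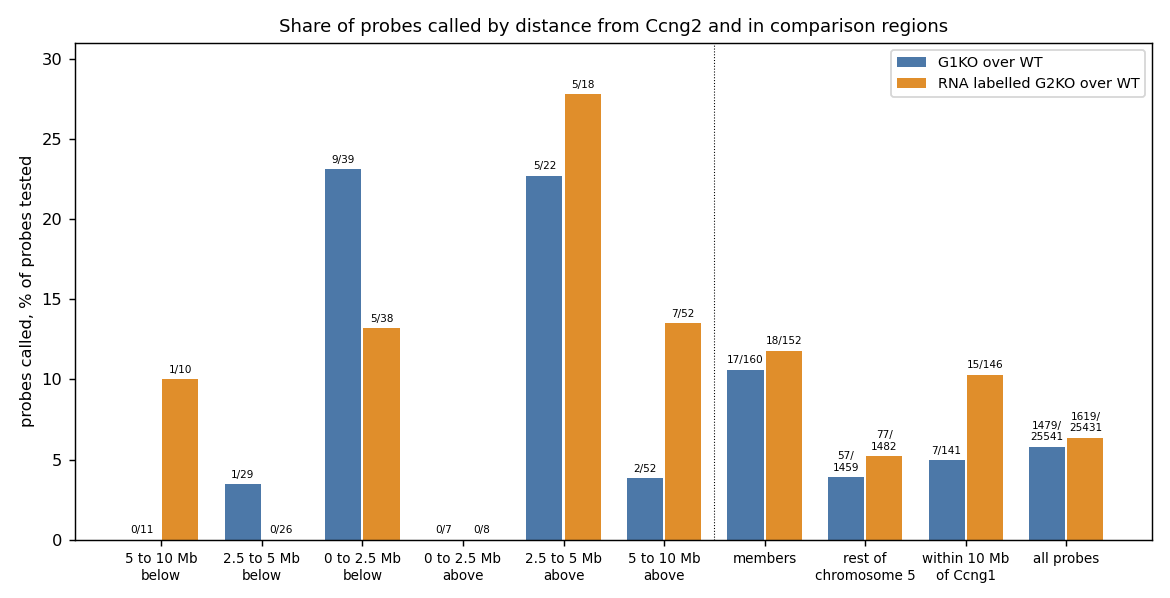
Percentage of tested probes called (vertical axis, from 0) in 6 distance bins below and above Ccng2 (left of the dotted line) and in all members, the rest of chromosome 5, the stretch around Ccng1 and the whole array (right), with the counts called and tested above each bar. Bars for G1KO and for the RNA labelled G2KO are side by side, and reach 22.7% and 27.8% between 2.5 and 5 Mb above Ccng2. Both are 0 within 2.5 Mb above it, where only 7 and 8 probes were tested.

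The nearest tested gene names on the lower side, in order from Ccng2, were 2010109A12Rik at 0.0677 Mb, AK034915 at 0.0918 Mb and Septin11 at 0.0995 Mb. Septin11, a filament-forming GTPase of the cytoskeleton, had log2 ratios of -0.10 ± 0.09 and -0.25 ± 0.31 at its 2 probes in G1KO, and of -0.73 ± 0.02 and -0.24 ± 0.27 in the RNA labelled G2KO. AK034915 was at 0.34 ± 0.17 and -0.30 ± 0.02, respectively. 2010109A12Rik was at -0.07 ± 0.06 in G1KO, and at -0.08 ± 0.07 in the RNA labelled G2KO, where it was not well above background in the knockout RNA. The upper side was sparse. The Pramel37 probe at 0.791 Mb was tested only in the RNA labelled G2KO, with -0.13 ± 0.12, and LOC670279 at 1.86 Mb had -0.37 ± 0.23 and 0.43 ± 0.15. NAP112027-1 had 0.32 ± 0.06 and -0.24 ± 0.03. Cnot6l, a deadenylase that shortens mRNA tails, had ratios of 0.09 and 0.10 in G1KO and of -0.13 and -0.28 in the other pair. Mrpl1, a protein of the mitochondrial ribosome, lay between -0.15 and 0.18 at 3 probes in G1KO and between -0.03 and 0.09 in the other pair. None of these passed 2-fold.

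In G1KO the called genes closest to Ccng2 formed a run. Scarb2, Stbd1, AK090299 and Shroom3 were adjacent among the tested gene names and each had a lower probe, over 0.514 Mb. AK090299 lies on the same strand as the Shroom3 probe and may report the same gene, so the run may hold fewer genes than names. No gene left out by name lay among them. Parm1 and Cdkl2, further out, were lower as well, but uncalled genes and the higher U90926 lay between them and the run. In the other pair AK090299 was not tested, and Scarb2, Stbd1 and Shroom3 were not called and had ratios above 0.

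Parm1, an androgen-regulated mucin-like membrane protein, had the lowest log2 ratio of the members in G1KO. At its brighter probe, at chr5:92699112-92699171, the log2 level was 10.90 and 10.86 in G1KO on the 2 arrays and 13.46 and 13.40 in WT. The log2 ratio was -2.55 ± 0.01, and -2.41 ± 0.08 at a second probe. In the other pair the levels at the brighter probe were far lower, at 8.40 and 8.33 in the RNA labelled G2KO and 7.34 and 7.28 in its WT, and the ratio was 1.06 ± 0.00, called higher. The second probe gave 0.39 ± 0.12 there and was not called. The 2 WT cultures thus differed more at Parm1, by 6.12 ± 0.00 on the log2 scale, than either knockout did from its WT.

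Cdkl2, a kinase related to the cyclin-dependent kinases, was lower in both comparisons at the probe at chr5:93081556-93081615. Its log2 levels were 8.12 and 8.20 in G1KO against 10.39 and 10.42 in WT, a ratio of -2.25 ± 0.03. They were 9.20 and 9.23 in the RNA labelled G2KO against 10.67 and 10.70 in WT, a ratio of -1.47 ± 0.01. Both knockout RNAs thus lay below both WT RNAs at this probe, with 1 culture per genotype measured on 2 arrays. A dimmer probe of the gene, whose hybridised stretch spans several kb of the genome, gave -0.74 ± 0.19 and -0.71 ± 0.55 and was called in neither.

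Scarb2, a lysosomal membrane protein that carries glucocerebrosidase to the lysosome, was lower at both of its probes in G1KO. The log2 levels at the brighter one, at chr5:93523745-93525078, were 11.13 and 11.14 in G1KO and 12.70 and 12.55 in WT, and the ratios were -1.49 ± 0.11 and -1.51 ± 0.18. The other probe, at chr5:93523785-93525118, covers nearly the same stretch of the genome. Both thus report the same part of the gene and are not independent support. In the other pair all values at the brighter probe were close to the G1KO level, at 11.23 and 11.24 in the RNA labelled G2KO and 11.10 and 11.00 in WT. The ratios there were 0.18 and 0.21.

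Stbd1, which tethers glycogen to membranes, was called lower in G1KO at 1 of its 3 probes, at chr5:93681311-93681370, with log2 levels of 11.20 and 11.12 against 12.79 and 12.77 in WT. The ratio was -1.62 ± 0.05. Its other probes gave -0.94 ± 0.12 and -0.97 ± 0.10, each past 2-fold on only 1 array. AK090299, a cDNA clone with no gene symbol, had a ratio of -1.75 ± 0.02. Shroom3, an actin-binding protein that constricts the tops of epithelial cells, had log2 levels of 6.31 and 6.66 in G1KO and 8.19 and 8.20 in WT at chr5:94037322-94037381, a ratio of -1.71 ± 0.24. Shroom3 was at 0.83 ± 0.31 in the RNA labelled G2KO, past 2-fold on only 1 array.

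**Figure D3:**
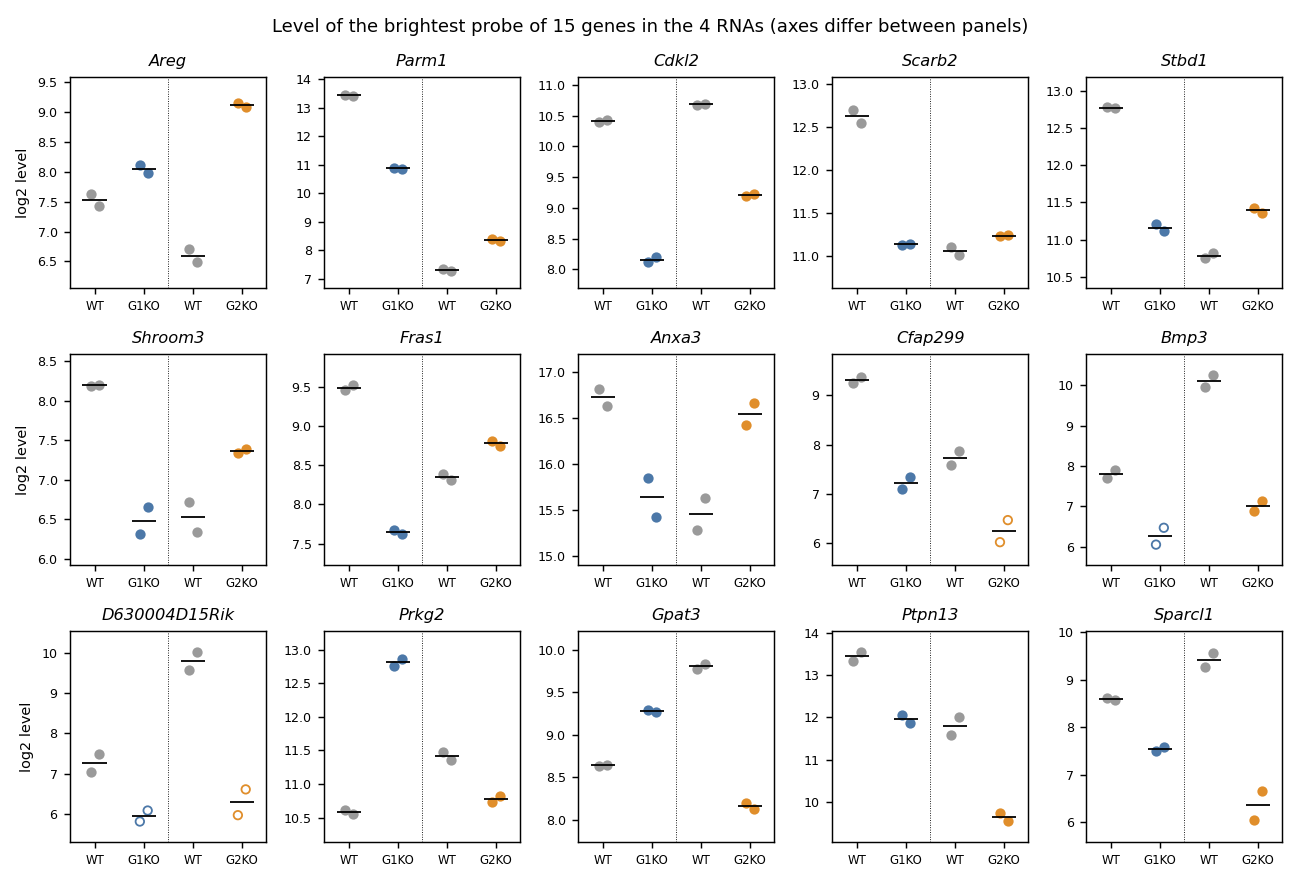
Log2 level of the brightest probe of 15 member genes (vertical axes, which differ between panels) in the WT and knockout RNA of each pair, the G1KO pair left and the G2KO-labelled pair right of each dotted line. Points are single arrays, horizontal lines their means, and open points mark RNAs not well above background on both arrays. The WT of the G1KO pair exceeds the other WT by more than 1 at Parm1, Scarb2, Stbd1, Shroom3, Fras1, Anxa3, Cfap299 and Ptpn13. At Bmp3, D630004D15Rik and Gpat3 the WT of the G1KO pair is lower than the other by more than 1 on the log2 scale.

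U90926, a transcript known by its accession, was higher in G1KO within the same part of the stretch, with a ratio of 1.44 ± 0.27, and was tested only there. Afp, the fetal albumin-like protein alpha-fetoprotein, lies 2.77 Mb below Ccng2. Its log2 levels were 7.87 and 7.65 in G1KO and 6.56 and 6.28 in WT, a ratio of 1.34 ± 0.05, whereas it was at -0.62 ± 0.10 in the other pair. The other albumin family member tested was Afm, at -0.49 in G1KO. Alb, Ttr, Apoa1 and Hnf4a, further markers of hepatocytes, were not well above background in any of the 4 RNAs. The summed level of these 4 and Afp was 465 to 491 in G1KO and 338 to 358 in its WT, and 411 to 416 and 477 to 498 in the other pair. Afp alone of the 5 was well above background, so the sum is no check on hepatocyte RNA beyond Afp itself.

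The EGF family ligands, which activate the EGF receptor and its relatives, lie side by side 1.92 to 2.24 Mb below Ccng2, and 5 of their 6 probes, for all 4 genes, were tested in each pair. None was called in G1KO, with a median ratio of 0.09. Areg, amphiregulin, was called higher in the RNA labelled G2KO, and the median of the 5 probes was 0.51 there. The log2 levels of Areg were 9.15 and 9.08 in the RNA labelled G2KO and 6.70 and 6.48 in WT, a ratio of 2.52 ± 0.11. In the other pair they were 8.12 and 7.98 in G1KO and 7.63 and 7.42 in WT, a ratio of 0.53 ± 0.06. Areg was thus higher in the knockout RNA of both pairs, on both technical arrays of each, but passed 2-fold in 1 comparison.

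Ereg, epiregulin, had a probe on each strand. The one in the direction of the gene gave 0.09 ± 0.08 in G1KO and 0.51 ± 0.16 in the other pair. The one on the opposite strand gave 0.66 ± 0.26 and 0.54 ± 0.42, respectively. Epgn, epigen, was at 0.01 ± 0.16 and 0.16 ± 0.15. Btc, betacellulin, was close to background, at -0.36 ± 0.03 in G1KO, where it was not well above background in the knockout RNA and at least 1.28-fold lower than in WT. In the other pair it was at 0.19 ± 0.10 and not well above background in WT, with the knockout RNA at least 1.14-fold higher.

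Between 4.69 and 4.77 Mb above Ccng2, Cfap299, Bmp3 and D630004D15Rik were adjacent among the tested gene names and were lower in both comparisons, over 0.082 Mb. Bmp3 is a bone morphogenetic protein known to restrain bone formation. Its log2 levels, at chr5:99120173-99120232, were 6.89 and 7.14 in the RNA labelled G2KO and 9.96 and 10.27 in WT, a ratio of -3.09 ± 0.04. In G1KO they were 6.05 and 6.47 against 7.71 and 7.90, a ratio of -1.54 ± 0.16, with G1KO well above background on 1 of 2 arrays.

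D630004D15Rik lies 3.48 kb from the Bmp3 probe on the same strand, so the 2 probes may report 1 transcript. Neither knockout RNA was well above background. The level was at least 11.4-fold lower than WT in the RNA labelled G2KO and at least 2.46-fold lower in G1KO. Cfap299, a cilia- and flagella-associated protein, had a ratio of -2.08 ± 0.09 in G1KO, with log2 levels of 7.09 and 7.35 against 9.24 and 9.37 in WT. In the RNA labelled G2KO it was not well above background and was at least 2.82-fold lower than in WT.

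Prkg2, the membrane-bound cGMP-dependent protein kinase that promotes growth of cartilage and bone, lies next to them at 4.83 Mb and moved the other way in G1KO. Its log2 levels were 12.77 and 12.87 in G1KO and 10.62 and 10.55 in WT, a ratio of 2.23 ± 0.12. A second, dimmer probe in the gene gave 0.71 ± 0.11. Its ratios in the RNA labelled G2KO were -0.65 and -0.33, and neither was called.

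Nearer to Ccng2, Fras1 and the brighter probe of Anxa3 had ratios of opposite sign in the 2 pairs. Fras1, an extracellular matrix protein of embryonic basement membranes, had log2 levels of 7.67 and 7.62 in G1KO and 9.46 and 9.53 in WT, a ratio of -1.85 ± 0.09, and was at 0.43 in the RNA labelled G2KO. Anxa3, annexin A3, a calcium-dependent membrane-binding protein, was called higher in the RNA labelled G2KO, with levels of 16.43 and 16.66 against 15.28 and 15.63 and a ratio of 1.09 ± 0.08. In G1KO Anxa3 was at -1.09, with levels of 15.85 and 15.43 against 16.81 and 16.63, and was past 2-fold on only 1 array. A second, dim Anxa3 probe was at -0.11 ± 0.07 in G1KO and was not tested in the other pair. At both genes the WT of the G1KO pair was above the WT of the other, by 1.15 ± 0.10 and 1.27 ± 0.37.

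Ptpn13, a large cytoplasmic tyrosine phosphatase at 9.44 Mb above Ccng2, was lower in both pairs. At the brighter probe, at chr5:103838573-103838632, the log2 levels were 12.06 and 11.86 in G1KO against 13.35 and 13.55 in WT, and 9.73 and 9.54 in the RNA labelled G2KO against 11.59 and 12.00 in its WT. The ratios were -1.49 ± 0.28 and -2.16 ± 0.42. The second probe gave -1.18 ± 0.14 and -0.93 ± 0.24 and was called in G1KO only. AK033818, a cDNA clone between the Ptpn13 probes on the same strand, had a ratio of -1.09 ± 0.02 in the RNA labelled G2KO and may report the same gene.

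The highest members were those of Sparcl1, an anti-adhesive matrix protein related to SPARC, and the only gene of the bone and tooth matrix list that was tested, at 2 of the list's 6 probes. At the brighter probe the log2 levels were 6.06 and 6.65 in the RNA labelled G2KO and 9.26 and 9.55 in WT, a ratio of -3.05 ± 0.22. At the other the knockout RNA was not well above background, and Sparcl1 was at least 5.31-fold lower than in WT. In G1KO the ratios were -1.06 ± 0.10 and -0.95 ± 0.08, each past 2-fold on only 1 array.

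Further members were called only in the RNA labelled G2KO. Gpat3, which makes lysophosphatidic acid for triglyceride synthesis, was lower at both probes, with ratios of -1.27 ± 0.05 and -1.64 ± 0.09. At the brighter one its log2 levels were 8.20 and 8.12 against 9.77 and 9.83 in WT. In G1KO the same probes were at 0.54 and 0.64. Naaa, a lysosomal amidase for fatty acid ethanolamides, had a ratio of -1.25 ± 0.09, and its neighbour Uso1, a tether for vesicles moving to the Golgi, had -1.01 ± 0.08 and -1.03 ± 0.02, of which only the second was past 2-fold on both arrays. Bmp2k, a kinase linked to endocytosis, was lower at 1 of 4 probes (-1.42 ± 0.15), and Aff1, a subunit of the super elongation complex, at 1 of 3 (-1.13 ± 0.00). Epha5, an ephrin receptor 9.21 Mb below Ccng2, was not well above background in WT and was at least 2.20-fold higher in the knockout RNA.

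**Figure D4:**
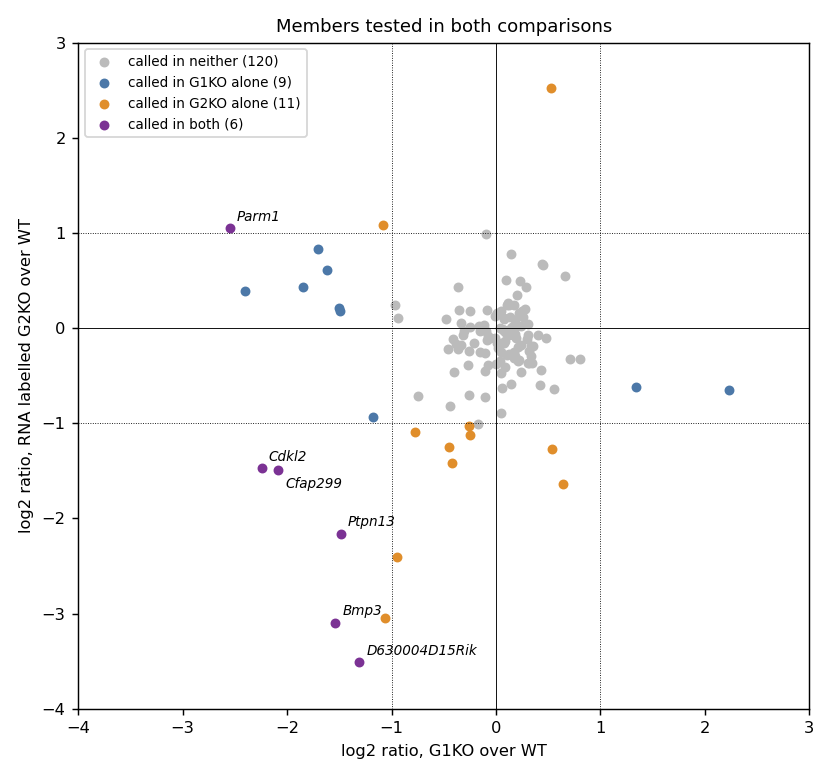
Mean log2 ratio of the RNA labelled G2KO over WT (vertical axis) against that of G1KO over WT (horizontal axis) for the 146 members tested in both, with dotted lines at 2-fold and colours for the comparison in which a member was called. Of the 6 members called in both, 5 lie in the lower left corner and Parm1 in the upper left.

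Of the 146 members tested in both comparisons, 5 were called lower in both (3.42%, against 0.547% of the 24150 probes tested in both on the whole array). These were the probes of Cdkl2, Cfap299, Bmp3, D630004D15Rik and Ptpn13. Parm1 was called in opposite directions, no member was called higher in both, and 120 were called in neither. The pairs were labelled with separate WT cultures, but all 4 arrays lay on 1 slide, and the values are given side by side without a test.

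The WT cultures also differed from each other. Set against each other array by array in the same dye, the log2 levels of the WT cultures differed by at least 1 in the same direction at 18 of the 146 members (12.3%), against 10.7% of all 24150 probes tested in both. The shares called between knockout and WT were 5.79% and 6.37% over the array and 10.6% and 11.8% among the members. These are not like measures, since the called ratios were taken within an array and the WT levels come from different arrays. The sets of probes tested differ as well, so the shares are not ranked. Among the 26 members called in either comparison the WT levels differed in this way at 15, and among the 120 called in neither at 3, although the WT levels enter the calls as well. Cdkl2 was among those with like levels in both WT cultures, with a difference of -0.28 ± 0.01, and Aff1 was at -0.01 ± 0.05. The knockout RNAs differed in this way at 15 of 146 members (10.3%) and at 8.27% of all probes. How far differences between cultures enter these ratios was not tested.

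The other lists are given beside the shares called over the array, 5.79% in G1KO and 6.37% in the other pair. All 21 probes of the RNA binding and ribosome biogenesis list, for 10 of 10 genes, were tested in both pairs and 0 were called. Their ratios lay between -0.15 and 0.44 in G1KO, with a median of 0.18, and between -0.39 and 0.67 in the RNA labelled G2KO, with a median of -0.11. Among them were Utp3, which acts in ribosome assembly, and Hnrnpd, Hnrnpdl and G3bp2, which bind mRNA. Of 18 probes for the nuclear pore, secretory pathway and protein turnover, 17 were tested, and 2 of 17 were called in each pair (11.8%). In G1KO only the 2 of Scarb2 were called, lower, with a list median of 0.03. Only those of Uso1 and Naaa were in the RNA labelled G2KO, with a median of -0.16. The rest of this list included Cops4, a subunit of the COP9 signalosome, Sec31a, a coat protein of vesicles leaving the endoplasmic reticulum, and Nup54 of the nuclear pore.

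Among the transcription and chromatin genes, 24 of 26 probes were tested in G1KO with 0 called and a median of 0.08. For the RNA labelled G2KO 19 were tested, with 1 lower (Aff1, 5.26%) and a median of -0.13. The lipid, steroid and mitochondrial enzymes had 0 of 14 called in G1KO (median 0.03) and 2 of 13 (15.4%), both of Gpat3, lower in the other pair (median -0.17). For kinases, phosphatases and GTPase regulators, 21 of 30 probes were tested in each pair. In G1KO 1 was higher (Prkg2) and 3 were lower (Cdkl2 and both of Ptpn13), 19.0% in all, with a median of -0.01. There were 3 lower in the RNA labelled G2KO (Cdkl2, Bmp2k and Ptpn13, 14.3%), with a median of -0.22.

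Of the matrix and membrane-associated developmental genes, 5 of 12 tested probes were lower and 0 higher in G1KO (41.7%, against 5.79% of all probes), 2 of them of Parm1 and the rest of Shroom3, Fras1 and Bmp3, with a list median of -0.74 and a range of -2.55 to -0.10. In the RNA labelled G2KO 3 of 12 were higher (Epha5, Parm1 and Anxa3) and 1 was lower (Bmp3), 33.3% in all against 6.37%, with a median of 0.19. The medians of all tested probes, -0.0023 and -0.0071, stand beside them. The lists were drawn up with earlier results of these data known, and no test was made over them.

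**Figure D5:**
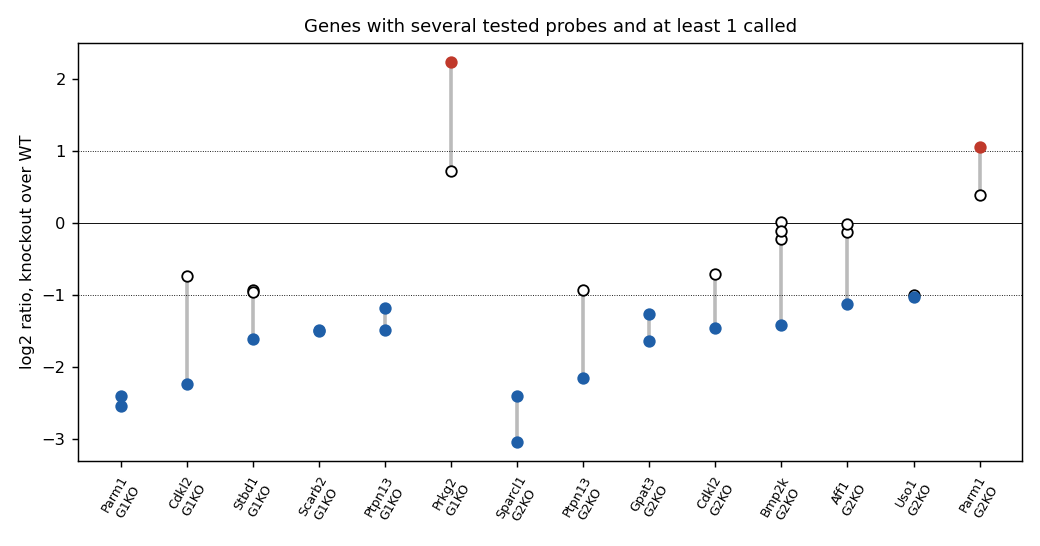
Mean log2 ratio (vertical axis) at every tested probe of the member genes with several tested probes and at least 1 called, in G1KO and the RNA labelled G2KO as named under the axis. Filled points were called and open ones were not, and dotted lines mark 2-fold. Bmp2k and Aff1 have a single called probe while their others lie near 0, and both probes of Parm1, Scarb2, Ptpn13 in G1KO and of Gpat3 and Sparcl1 in the RNA labelled G2KO were called.

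Probes of 1 gene usually gave like values. In G1KO 42 genes had several tested probes, and the median difference between their highest and lowest ratio was 0.15. All probes were called for 3 of these genes, none for 36 and only some for 3, which were Cdkl2, Prkg2 and Stbd1. For the RNA labelled G2KO the median difference was 0.31 over 38 genes, of which 2 had all probes called, 30 none and 6 some. Those 6 were Aff1, Bmp2k, Cdkl2, Parm1, Ptpn13 and Uso1. In each of these cases 1 probe was called, and it gave the brightest signal of the gene's probes. At Bmp2k and Aff1 1 of the uncalled probes lies on the opposite strand. At Bmp2k the uncalled ratios lay between -0.22 and 0.01, and at Aff1 they were -0.13 and -0.01. These probes had mean log2 levels of 6.39 to 7.40, where the offset of 50 draws ratios towards 0, so they do not show whether the rest of the gene changed.

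The labelled cell type was checked by its markers. All 6 fibroblast markers (Col1a1, Col1a2, Col3a1, Thy1, Vim and Fn1) were well above background in every RNA. Their summed level was 287366 to 349029 in G1KO and 379119 to 396908 in its WT, but 172886 to 248074 in the RNA labelled G2KO and 530392 to 609443 in its WT, in linear units over both arrays. The 6 mesothelial markers summed to 52702 to 61895 in G1KO and 176597 to 229573 in its WT, and to 3806 to 4147 and 1721 to 1794 in the other pair. In G1KO Upk3b, Wt1 and Msln had log2 ratios of -4.25, -3.04 and -2.79, but Krt19 one of 2.90. Of the 5 osteoblast markers Ibsp was not well above background in any RNA and 3 were above it in each RNA on both arrays. Their sum was 63225 to 75760 in G1KO and 5716 to 7723 in its WT, and 16477 to 20621 against 69652 to 75087 in the other pair, and Spp1 was at log2 ratios of 3.76 and -2.26. Runx2 and Bglap were at 0.81 and 0.35 in G1KO, and at 0.36 and 0.23 in the other pair, opposite in sign to Spp1 there. The 5 neural and glial markers summed to 2328 to 2344 in G1KO and 1945 to 1994 in its WT, and to 5972 to 6008 against 1248 to 1272 in the other pair, where Sox2 had a log2 ratio of 5.59. Blood and macrophage markers summed to between 263 and 278 in all RNAs, with Ptprc not well above background. The part of these shifts in the members' ratios was not tested, and in bulk RNA fewer cells of a kind and less RNA per cell cannot be told apart.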

How the data were processed

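Per the labels, RNA of MEFs in logarithmic growth was turned into Cy5- or Cy3-labelled cRNA with oligo-dT priming. The 4 Agilent mouse arrays of 45018 spots shared 1 slide and 1 scan. The authors read the spots with Agilent Feature Extraction, version 9.1 per the submitters' processing notes and 10.5.1.1 in the headers. The deposited intensity values are the mean brightness of a spot and the median around it, with neither background subtraction nor normalization. The authors' log10 ratio in the same files, after the software's background subtraction and dye normalization, and the deposited series table hold the same ratio (r = 0.999999, or -0.999999 on the swapped arrays, where the table is turned to knockout over WT), and were used as alternatives. No deposited p-value was used.

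Processing used limma 3.58.1 (R 4.3.3). Background was corrected by normexp with an offset of 50, control and outlier spots (between 114 and 203 gene spots per array) were left out, and each array was normalized by loess. Spots were averaged by probe, ratios turned to knockout over WT, and both arrays averaged, so a dye-swapped pair counted as 1 replicate. No gene spot was saturated. Levels are log2 values per channel after loess and Aquantile scaling, comparable between RNAs for 1 probe and not between probes. A bound ("at least N-fold") sets the bright RNA against the higher of the dim probe's signal and the lowest signal among probes well above background, each averaged over both arrays on the log2 scale. With 2 arrays per pair their number limits the precision. The procedure was tested on simulated data. Positions are mm8, from the files; 305 probes without one could not enter. Gene names were updated through RefSeq on GRCm38.p6, which was used for names and promoters only. Accessions named 162 members, current symbols 45 and older symbols 20, and 65 kept the file's name.

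Members and gene lists were chosen with earlier results of these data known. Named were all called members, the 5 tested genes nearest Ccng2 on each side, all tested EGF family ligands and bone and tooth matrix proteins, the brightest examples of the other lists and every gene with only some probes called. The comparison of the WT levels was added after the ratios were seen. In all 13 alternatives were tried, among them other background correction, centring and filters, single arrays, 1 probe per gene, a 5 Mb window, the left-out genes added and other thresholds.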

Additional observations from a re-analysis of the deposited data

Results flagged for a closer look

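Parm1 at its brighter probe was called in opposite directions in the 2 comparisons, and the difference was not tested. Its log2 ratio was 3.61 higher in the RNA labelled G2KO (1.06 ± 0.00, on both arrays) than in G1KO (-2.55 ± 0.01, on both arrays). The second probe of the gene was called only in G1KO.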

How the results depend on the processing

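The counts of called members stayed within 1.5 times those reported (17 for G1KO, 18 for the RNA labelled G2KO) without background correction, with stricter or no filters on dim probes, on either array alone, with 1 probe per gene and with the left-out genes added. With no filter the same 17 and 18 were called of 292 (5.82% and 6.16%, against 3.6% and 3.93% of all probes), so the added dim probes gave no calls. By gene, 14 of 95 and 16 of 92 had a called probe (14.7% and 17.4%, against 7.17% and 7.94% over the array). In the other settings just named the shares were 10.7% to 14.2%, against 5.67% to 7.32% of all probes. With median centring in place of loess 11 and 8 were called (6.88% and 5.26%, against 3.18% and 3.76% of all probes), all among those reported, while the mean ratios of the named members moved by at most 0.16. With the scanner's own ratio, and likewise with the series table, 33 and 30 were called (20.6% and 19.7%, against 11.2% and 13.4% of all probes with the scanner's ratio, and 11.2% and 13.3% with the series table), including all 17 and all 18 reported. The cause of these shifts was not tested. A 4-fold threshold left 5 and 5 (3.12% and 3.29%, against 1.51% and 1.84% of all probes). A 1.5-fold threshold gave 28 and 28 (17.5% and 18.4%, against 13.1% and 14.6%). Within 5 Mb, 10 of 90 tested were called in the RNA labelled G2KO (11.1%, against 6.37% of all probes). In G1KO 15 of 97 were called there (15.5%, against 5.79%).

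The median log2 ratio of members kept its sign under every alternative. In G1KO, where it was 0.05, it was 0.13 with the scanner's ratio and the series table, 0.0126 with no filter, 0.0061 on the array with knockout RNA in Cy5 and 0.0104 within 5 Mb. In the RNA labelled G2KO, where it was -0.11, it was -0.14 without background correction, -0.0725 with median centring, -0.17 with the scanner's ratio and the series table, -0.0147 with no filter, -0.13 on the array with knockout RNA in Cy5, -0.13 with 1 probe per gene and -0.13 with the left-out genes added. The cause of these shifts was not tested. No called ratio of a named member changed sign. No paired analysis was possible because each genotype was 1 culture. Signal near background limits the dimmest members to bounds.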
